A study of Homo sapiens with 12 samples.

Results

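The genes described here are *VCAM1*, *ICAM1*, *ICAM2*, *ICAM3*, *ICAM4*, *ICAM5*, *ALCAM*, *CD44*, *TNFAIP6* and *TNFAIP2*. They are 10 of the 58288 genes in the deposited count table, each picked by the symbol that belongs to its Ensembl identifier. The symbols were chosen because their response to TNF-α in these libraries was already known, so the values below describe that response and are not an independent test of it. The libraries come from HL-60/S4, 1 established line of human promyelocytic leukemia cells grown in suspension, at passage 8. There were 4 groups of 3 libraries, each library from a flask of its own. Promyelocytes, the undifferentiated form, received TNF-α at 16 ng/mL or the same volume of water (vehicle) for 2 h in growth medium with added calcium. Granulocytes, the form obtained with all-trans retinoic acid (ATRA) at 1 µM for 4 days, received the same TNF-α dose or vehicle for 2 h. Their medium also had added calcium but still held ATRA at 1 µM, and they were suspended at a lower cell density than the promyelocytes. Each cell type was handled in an experiment of its own. Where a level was higher in one cell type, experiment and cell type cannot be told apart.

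VCAM1 and the ICAMs are immunoglobulin-like proteins of the cell surface that bind integrins on a neighboring cell. On the vessel wall, TNF-α signaling through NF-κB raises VCAM1 and ICAM1, and leukocytes dock there through the integrins VLA-4, LFA-1 and Mac-1. ICAM3 is found mostly on leukocytes, ICAM4 on red cells and their precursors, ICAM5 on neurons and ICAM2 on endothelium, platelets and leukocytes. ALCAM binds CD6 and copies of itself. CD44 is the main cell-surface receptor for hyaluronan, a sugar polymer of the matrix, and TNFAIP6 (also called TSG-6) is a secreted protein that binds hyaluronan. TNFAIP2 is an intracellular protein that takes part in forming membrane protrusions and nanotubes.

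The sequence before the start of the gene is shown for *VCAM1* and *TNFAIP6*, which were nearly silent with vehicle, and for *ICAM4* and *ICAM5*, whose response differed in sign between the cell types. For *ICAM1* and *ICAM3* only a short stretch around a motif match is given. The sequences come from RefSeq (GRCh38.p14), read 5′ to 3′ on the strand of the gene, and 9 of the 10 genes had a window of 250 bases, *ICAM2* being the one without. The motifs searched, on both strands, were 4: the κB consensus bound by NF-κB, the related palindrome GGAANTTCC, TGANTCA, the element bound by AP-1, and TATAAA, the TATA element. The κB consensus was GGGRNNYYCC, with R for A or G, Y for C or T and N for any base. Only exact matches counted, so a near match such as gggtttcccc in the *VCAM1* window stays in lower case. Capitals mark a match of any of the first 3, and TATAAA is left in lower case.

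VCAM1, chr1:100719492-100719741, plus strand: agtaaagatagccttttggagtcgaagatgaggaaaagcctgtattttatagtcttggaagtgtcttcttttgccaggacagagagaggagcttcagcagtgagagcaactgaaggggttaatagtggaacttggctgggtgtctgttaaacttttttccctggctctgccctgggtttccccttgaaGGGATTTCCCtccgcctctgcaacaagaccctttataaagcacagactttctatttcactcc

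TNFAIP6, chr2:151357342-151357591, plus strand: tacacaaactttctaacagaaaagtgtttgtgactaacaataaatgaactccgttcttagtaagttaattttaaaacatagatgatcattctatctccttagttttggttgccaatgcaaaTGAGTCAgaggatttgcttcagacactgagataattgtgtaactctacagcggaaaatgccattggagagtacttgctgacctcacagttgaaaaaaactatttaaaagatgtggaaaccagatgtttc

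ICAM4, chr19:10286705-10286954, plus strand: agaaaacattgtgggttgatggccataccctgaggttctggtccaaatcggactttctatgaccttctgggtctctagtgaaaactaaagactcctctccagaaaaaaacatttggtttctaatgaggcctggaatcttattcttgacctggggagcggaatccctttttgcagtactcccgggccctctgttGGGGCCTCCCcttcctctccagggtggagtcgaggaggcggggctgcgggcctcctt

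ICAM5, chr19:10289702-10289951, plus strand: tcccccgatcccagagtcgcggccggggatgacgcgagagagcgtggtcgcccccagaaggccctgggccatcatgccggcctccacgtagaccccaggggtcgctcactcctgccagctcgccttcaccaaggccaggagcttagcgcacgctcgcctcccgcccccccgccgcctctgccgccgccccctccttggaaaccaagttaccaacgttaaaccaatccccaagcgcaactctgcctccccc

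ICAM1, chr19:10270924-10270952, plus strand: gctttagcttGGAAATTCCggagctgaag

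ICAM3, chr19:10339661-10339690, minus strand: ccgtcgcagtGGGAGGCCCCgccttttccc

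The *VCAM1* window held the κB match GGGATTTCCC, 62 to 53 bases before the start, and TATAAA 29 to 24 bases before it on the strand of the gene. On the other strand TATAAA also matched at 205 to 200 bases and at 31 to 26 bases, the latter overlapping the match on the gene's strand. The *ICAM1* match GGAAATTCC lay 186 to 178 bases before the RefSeq start, and TATAAA 30 to 25 bases before it. *ICAM4* held a κB match 57 to 48 bases before the start. *ICAM3* had 3 RefSeq start windows, and 1 of them held a κB match, 56 to 47 bases before that start. In *TNFAIP6* no κB match was found, and TGAGTCA lay 129 to 123 bases before the start. The windows of *ICAM5*, *ALCAM*, *TNFAIP2* and *CD44* held none of the 4 motifs. The RefSeq starts of *ICAM1*, *ICAM3*, *TNFAIP2* and *CD44* lie inside the gene as it was counted. Their windows overlap that gene, and the *ICAM1* and *ICAM3* matches lie within it. Of 35116 RefSeq windows of the same length, 9.96% held the κB consensus, 0.826% GGAANTTCC, 6.57% TGANTCA and 10.7% TATAAA. A match describes letters only, and binding was not measured.

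Each library had between 22829189 and 31895061 read pairs assigned to genes, and normalized counts are given in CPM, which divide a count by the TMM-scaled size of its library. In these libraries 3 counts correspond to 0.0941 to 0.131 CPM before scaling. Replicates within a group differed by 3.59 to 14.1 times the variance that sampling alone gives, so no pair agreed within sampling noise. A gene is said to have risen or fallen where its adjusted p was under 0.05 in edgeR's quasi-likelihood test over all genes. By that rule TNF-α changed 14.8% of the 16250 genes tested in promyelocytes (8.15% rose and 6.65% fell) and 49.2% of the 16944 tested in granulocytes (24.4% rose and 24.8% fell).

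Markers matched the labels of the cells. All 5 azurophil granule genes were above 3 counts in promyelocytes, with summed levels of 7321 to 8147 CPM with vehicle and 6065 to 6966 CPM with TNF-α. In granulocytes the same sum was 2134 to 2346 CPM with vehicle and 2145 to 2352 CPM with TNF-α, with 4 of the 5 above 3 counts. Most of this sum was *MPO*, at 6427 CPM in vehicle-treated promyelocytes. The 8 genes of granulocytic differentiation summed to 180.5 to 190.9 CPM in vehicle-treated and 284.7 to 303.3 CPM in TNF-α treated promyelocytes, and to 4886 to 5146 and 5387 to 5748 CPM in granulocytes. Singly, 2 of the 8 rose and 1 fell in promyelocytes, and 2 rose and 4 fell in granulocytes. The sums rose mainly through *CYBB* (112.6 to 215.7 CPM) in promyelocytes and *NCF1* (1218 to 1951 CPM) in granulocytes. Monocyte and macrophage genes summed to 3.94 to 4.80, 2.96 to 3.91, 49.1 to 51.4 and 30.3 to 34.0 CPM in the 4 groups in the order above, of which nearly all was *CSF1R*, and *MSR1* and *MARCO* had 0 reads in all 12 libraries. Endothelial genes summed to 0.941 to 2.87 CPM over all libraries, and *ROBO4* had 0 reads in each. Fibroblast and stromal genes summed to 0.0368 to 1.31 CPM, and *COL1A2*, *COL3A1*, *DCN*, *PDGFRA* and *POSTN* had 0 reads in each. Within a cell type, the vehicle and TNF-α libraries did not overlap in the sum of the azurophil, monocyte, differentiation and stromal genes in promyelocytes (the last through *COL1A1*, with 0 to 3 and 11 to 24 read pairs) and in the sum of the differentiation and monocyte genes in granulocytes. The part of these shifts in the results below was not tested. In bulk RNA, fewer cells of a type and less RNA per cell cannot be told apart.

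*VCAM1* (ENSG00000162692.10, chromosome 1, 100719742 to 100739045, plus strand), the partner of the integrin VLA-4, went from nearly no reads to 507 or more read pairs in promyelocytes. The 3 vehicle libraries had 0, 2 and 0 read pairs, and the 3 TNF-α libraries had 507, 572 and 593. In granulocytes it had 6, 4 and 5 read pairs with vehicle and 1973, 2401 and 1898 with TNF-α. No TNF-α library came near a vehicle library in either cell type. Summed over the libraries, the ratio of TNF-α to vehicle was 840 in promyelocytes (95% counting interval 232 to 6950) and 498 in granulocytes (302 to 891). These intervals cover counting error only. The fitted log2 fold changes were 9.49 ± 0.279 (standard error) in promyelocytes and 8.91 ± 0.125 in granulocytes. These errors do not cover the counting error of so few vehicle reads, and DESeq2 gave standard errors of 1.03 and 0.378. The difference between the responses was -0.53 ± 0.66 and did not pass the threshold. Without promyelocyte vehicle replicate 2, the sole vehicle library of that cell type with a read, the promyelocyte log2 fold change was 12.16. With TNF-α the level was 19.4 ± 0.918 CPM in promyelocytes and 87.0 ± 1.90 CPM in granulocytes (SD, n = 3), and the 4 groups did not overlap in the order promyelocyte vehicle, granulocyte vehicle, promyelocyte TNF-α, granulocyte TNF-α. The vehicle libraries alone would not have passed the filter on low counts, so the gene was tested only through its TNF-α level.

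**Figure D1:**
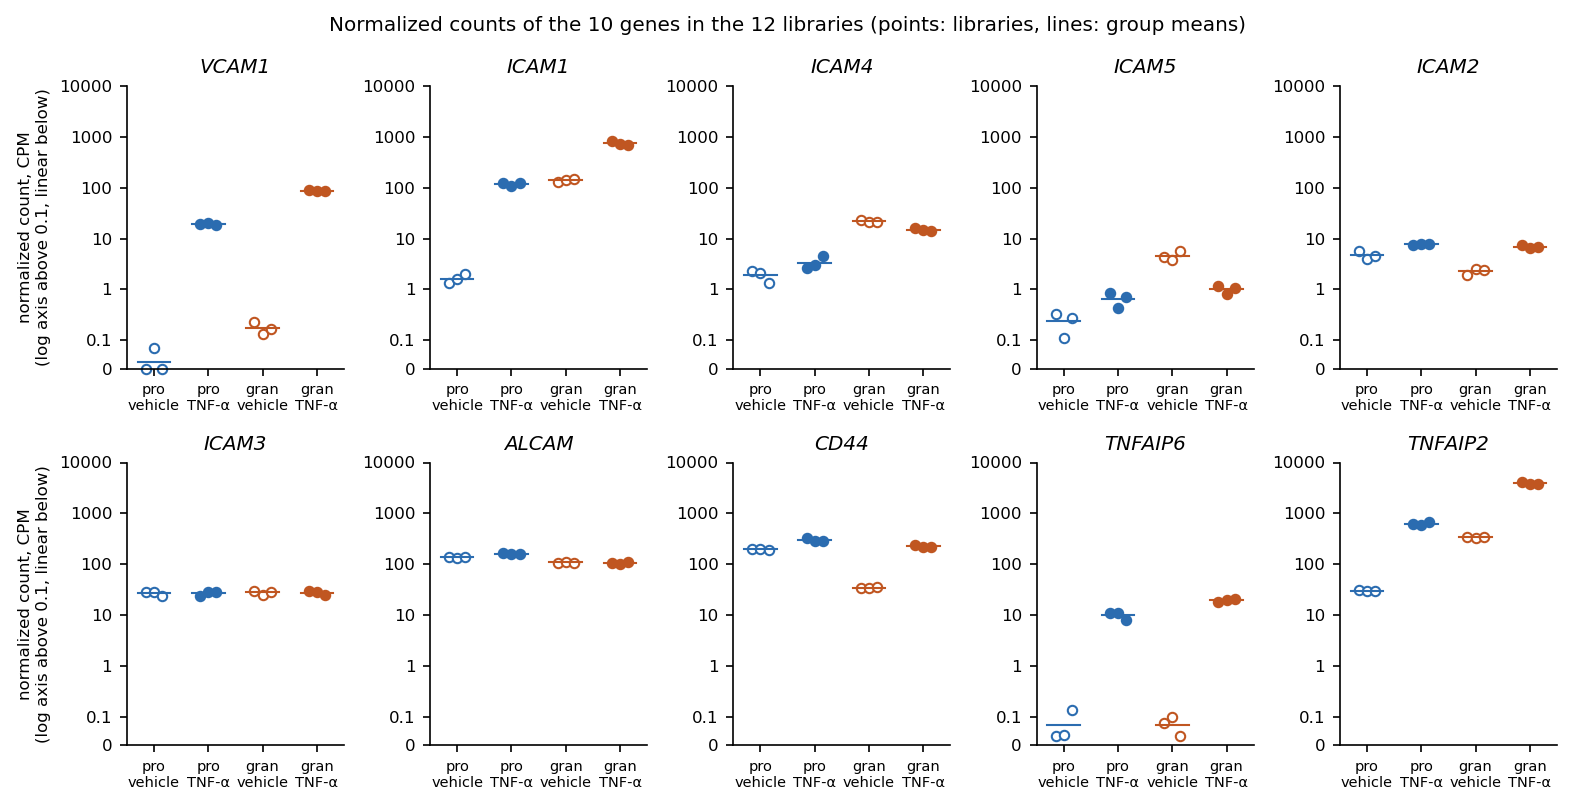
Normalized counts (CPM, log axis above 0.1 and linear below) of each gene in the 12 libraries, 1 panel a gene, with the 4 groups on the horizontal axis. Open circles are vehicle libraries, filled circles TNF-α libraries, and lines group means. *VCAM1* and *TNFAIP6* lie near 0 with vehicle and above 7 CPM in every TNF-α library, while the 12 *ICAM3* libraries lie between 23.6 and 29.9 CPM.

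*ICAM1* (ENSG00000090339.8, chromosome 19, 10270835 to 10286615, plus strand) binds LFA-1 and Mac-1 and rose in both cell types, with a far larger fold change in promyelocytes. In promyelocytes it had 40, 43 and 57 read pairs with vehicle and 3321, 3045 and 3913 with TNF-α. In granulocytes it already had 3426, 4212 and 4466 with vehicle, and 18244, 20312 and 15542 with TNF-α. Vehicle-treated granulocytes stood at 140.4 ± 8.99 CPM, slightly above TNF-α treated promyelocytes at 119.0 ± 8.90 CPM (SD, n = 3), and the libraries of these neighboring groups did not overlap. TNF-α raised it by 6.22 ± 0.109 on the log2 scale in promyelocytes, 74.8-fold, and by 2.41 ± 0.0586 in granulocytes, 5.30-fold. The granulocyte response minus the promyelocyte response was -3.78 ± 0.140 on the log2 scale. The level reached was nevertheless higher in granulocytes, at 751.8 ± 64.5 CPM with TNF-α (SD, n = 3).

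*ICAM4* and *ICAM5* follow *ICAM1* on the same strand, 351 bases after its end and 1458 bases after the end of *ICAM4*, and both rose in promyelocytes and fell in granulocytes. *ICAM4* (ENSG00000105371.8, chromosome 19, 10286967 to 10288522), the Landsteiner-Wiener blood group protein, had 70, 58 and 38 read pairs in vehicle-treated promyelocytes and 70, 84 and 141 with TNF-α. Scaled to the libraries, these were 2.29, 2.13 and 1.31 CPM with vehicle and 2.63, 3.002 and 4.44 CPM with TNF-α, a narrow gap between the groups. In granulocytes it had 610, 645 and 632 read pairs with vehicle and 352, 406 and 312 with TNF-α, or 22.0 ± 1.28 and 14.9 ± 0.942 CPM. Its log2 fold change was 0.85 ± 0.235 in promyelocytes against -0.58 ± 0.0794 in granulocytes, a difference of -1.39 ± 0.224. The promyelocyte value was 0.64 without vehicle replicate 3 and 0.59 without TNF-α replicate 3, and neither passed the threshold.

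*ICAM5* (ENSG00000105376.4, chromosome 19, 10289981 to 10296778, plus strand), known as telencephalin in neurons, was close to the limit of detection in promyelocytes. It had 10, 3 and 8 read pairs with vehicle and 23, 12 and 22 with TNF-α there, a ratio of 2.73 (95% counting interval 1.63 to 4.74). In granulocytes it had 114, 113 and 172 with vehicle and 26, 23 and 24 with TNF-α. The granulocyte groups were far apart, at 4.63 ± 1.04 and 1.03 ± 0.183 CPM, whereas the promyelocyte groups were separated by 2 read pairs. On the log2 scale the response was 1.47 ± 0.465 in promyelocytes against -2.20 ± 0.220 in granulocytes, and the latter minus the former was -3.62 ± 0.483. In promyelocytes the gene passed the filter only through its TNF-α level, lost its call in 5 of the 6 fits that left out 1 library (log2 fold changes of 1.15 to 1.75 over the 6) and had no adjusted p in DESeq2. TNF-α treated promyelocytes and TNF-α treated granulocytes overlapped in level.

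The region around the cluster was examined by position. Within 100 kb of the interval from *ICAM1* to *ICAM3* lay 17 other genes, and 10 of them were tested in each cell type. In promyelocytes 3 of these rose and 0 fell, and in granulocytes 7 rose and 0 fell, beside 8.15% and 24.4% rising over all genes tested. Of the genes within 20 kb of an ICAM gene, *TYK2*, a Janus kinase of cytokine receptors, rose in both cell types, by 0.79 in promyelocytes and 0.71 in granulocytes on the log2 scale. *MRPL4*, a mitochondrial ribosomal protein gene, rose by 0.21 in granulocytes. *LIMASI*, a noncoding gene on the strand opposite *ICAM1*, rose by 2.48 in granulocytes, from 1 to 6 read pairs per library with vehicle to 10 to 19 with TNF-α, while in promyelocytes it had 8 to 23 and 4 to 15. In granulocytes *LIMASI* passed the filter on low counts only through its TNF-α level. Counting used the strand, so pairs of *ICAM1* and *LIMASI* were told apart as far as the library keeps the strand.

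**Figure D2:**
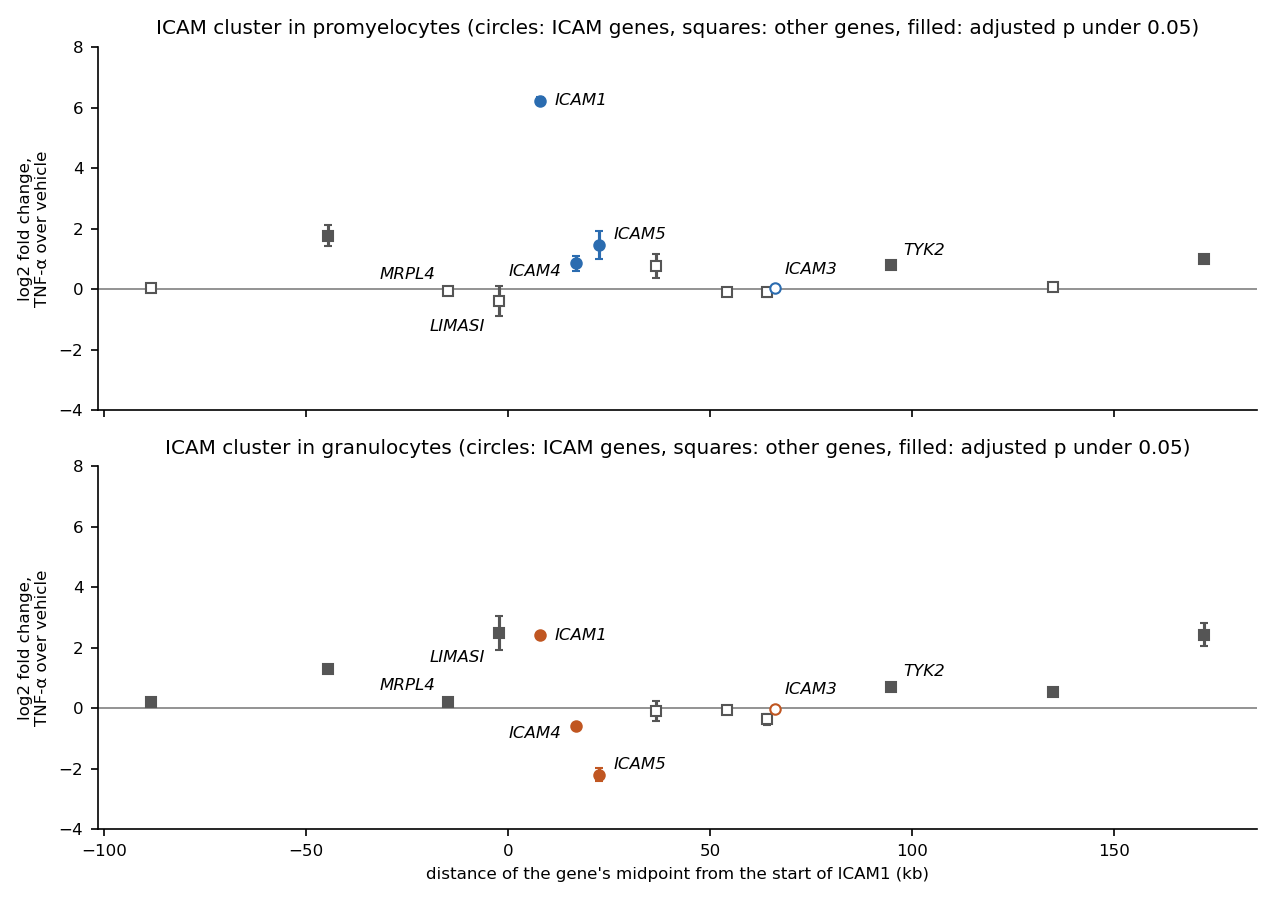
Log2 fold change (TNF-α over vehicle, bars standard error) of each tested gene of the *ICAM* cluster against the distance of its midpoint from the start of *ICAM1* in kb, for promyelocytes above and granulocytes below. Circles are ICAM genes and squares other genes, filled where the adjusted p was under 0.05. *ICAM1* lies at 6.22 and 2.41, and *ICAM4* and *ICAM5* change from above 0 in promyelocytes to below 0 in granulocytes.

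*ICAM3* (ENSG00000076662.9, chromosome 19, 10333776 to 10339823, minus strand), the ICAM of resting leukocytes, lies on the other strand, 36997 bases beyond the end of *ICAM5*, and its groups were at much the same level. It had 871, 769 and 682 read pairs in vehicle-treated promyelocytes and 638, 798 and 892 with TNF-α. In granulocytes it had 767, 756 and 861 with vehicle and 662, 783 and 554 with TNF-α. In CPM all 4 groups overlapped, with means of 26.8, 26.9, 27.8 and 27.7 CPM in that order. Log2 fold changes were 0.03 ± 0.0863 in promyelocytes and -0.02 ± 0.0733 for granulocytes, with a difference of -0.01 ± 0.125. With trends in GC content and length removed, the granulocyte value was -0.16 and passed the threshold.

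*ICAM2* (ENSG00000108622.10, chromosome 17, 64002594 to 64020634, minus strand), a ligand of LFA-1 that is made constitutively by endothelium, rose in both cell types from a low level. Promyelocytes had 176, 110 and 132 read pairs with vehicle and 202, 221 and 248 with TNF-α. Granulocytes had 50, 77 and 72 with vehicle and 165, 180 and 151 with TNF-α. The groups did not overlap within either cell type. TNF-α raised it by 0.72 ± 0.137 on the log2 scale in promyelocytes and by 1.56 ± 0.156 in granulocytes, where the response was larger by 0.88 ± 0.206. Granulocytes began at 2.30 ± 0.329 CPM and ended at 6.91 ± 0.511, and promyelocytes went from 4.79 ± 0.875 to 7.77 ± 0.153 CPM (SD, n = 3).

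*ALCAM* (ENSG00000170017.12, chromosome 3, 105366909 to 105576900, plus strand), the ligand of CD6, was well expressed and changed little. Promyelocytes had 4238, 3659 and 3995 read pairs with vehicle and 4443, 4353 and 4941 with TNF-α, which is 137.0 ± 2.10 and 159.5 ± 6.67 CPM. Granulocytes had 2771, 3354 and 3207 with vehicle and 2313, 2877 and 2394 with TNF-α, or 108.4 ± 2.31 and 105.3 ± 2.67 CPM. In CPM the promyelocyte groups did not overlap and the granulocyte groups did. Fitted log2 fold changes were 0.24 ± 0.0567 in promyelocytes and -0.06 ± 0.0496 for granulocytes, with a difference of -0.26 ± 0.0715. With trends in GC content and length removed, the values were 0.14, 0.03 and -0.12, and none of the 3 passed the threshold.

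*CD44* (ENSG00000026508.17, chromosome 11, 35138870 to 35232402, plus strand), the hyaluronan receptor, was among the most abundant of the genes in promyelocytes and responded far more in granulocytes. Promyelocytes had 6114, 5402 and 5544 read pairs with vehicle and 8690, 7876 and 9094 with TNF-α. Granulocytes had 872, 1028 and 1046 with vehicle and 5159, 6208 and 4897 with TNF-α. Vehicle-treated granulocytes stood lowest, at 34.2 ± 0.776 CPM, then vehicle-treated promyelocytes at 196.7 ± 4.55, TNF-α treated granulocytes at 225.7 ± 6.56 and TNF-α treated promyelocytes at 298.4 ± 24.95 CPM (SD, n = 3), with no overlap between neighbors. The log2 fold change was 0.63 ± 0.0626 in promyelocytes, 1.54-fold, and 2.71 ± 0.0530 in granulocytes, 6.53-fold. The difference between the responses was 2.12 ± 0.0817, opposite in sign to that of *ICAM1*. Counts cover the whole gene, and the splice forms of *CD44* were not separated.

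*TNFAIP6* (ENSG00000123610.4, chromosome 2, 151357592 to 151380048, plus strand), the secreted hyaluronan-binding protein, resembled *VCAM1*. It had 1, 1 and 4 read pairs in vehicle-treated promyelocytes and 295, 303 and 248 with TNF-α. In granulocytes it had 2, 3 and 1 with vehicle and 394, 558 and 448 with TNF-α. The vehicle groups overlapped, and every TNF-α library lay far above them. The ratio over the summed libraries was 142 in promyelocytes (95% counting interval 64.9 to 387) and 278 in granulocytes (127 to 759). The fitted log2 fold changes were 7.10 ± 0.315 and 8.01 ± 0.221. These errors do not cover the counting error of the few vehicle reads either, and DESeq2 gave 0.618 and 0.602. The difference between the responses was 0.96 ± 0.896 and did not pass the threshold. Here too the vehicle libraries alone would not have passed the filter. With TNF-α the level was 9.91 ± 1.82 CPM in promyelocytes and 19.4 ± 1.34 CPM in granulocytes.

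*TNFAIP2* (ENSG00000185215.8, chromosome 14, 103123442 to 103137439, plus strand), which acts inside the cell on membrane and actin, reached the highest level of the 10 genes. Promyelocytes had 941, 809 and 857 read pairs with vehicle and 16252, 16501 and 21315 with TNF-α. Granulocytes had 8893, 10045 and 10377 with vehicle and 89832, 107498 and 84282 with TNF-α. The means rose from 30.03 ± 0.625 to 624.3 ± 42.6 CPM in promyelocytes and from 341.0 ± 7.83 to 3908 ± 134.4 CPM in granulocytes (SD, n = 3). The 4 groups did not overlap, and vehicle-treated granulocytes lay between the vehicle and TNF-α libraries of promyelocytes. The log2 fold change was 4.40 ± 0.0697 in promyelocytes, 21.1-fold, and 3.50 ± 0.0577 in granulocytes, 11.3-fold. The response was smaller in granulocytes by 0.86 ± 0.0807 on the log2 scale, although the level reached was higher.

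Counted together, 9 of the 10 genes rose and 0 fell in promyelocytes, and 6 rose and 2 fell in granulocytes. The background over all genes tested was 14.8% and 49.2% called, and since the genes were chosen for their response, nothing is read from the excess. The vehicle and TNF-α libraries did not overlap for 9 genes in promyelocytes and 8 in granulocytes, beside 30.9% and 55.1% of all genes tested. The responses of the cell types differed past the threshold for 7 genes, against 24.0% of all 18124 genes tested for that difference (14.1% with the higher and 9.88% with the lower value in granulocytes). *CD44* and *ICAM2* responded more in granulocytes, and *ICAM1*, *ICAM5*, *ICAM4*, *TNFAIP2* and *ALCAM* had the lower value there. Over all genes, 58.9% of the differences past the threshold were higher in granulocytes, and 48.4% with DESeq2's size factors in the same fit, but the sign of each of the 7 differences was the same with both.

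**Figure D3:**
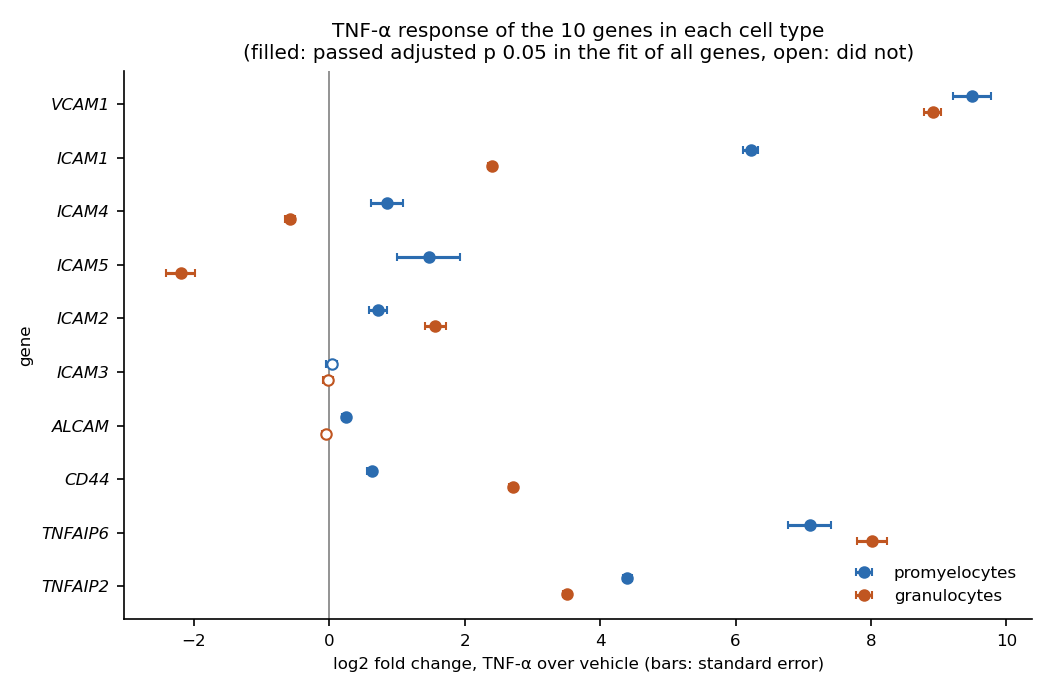
Log2 fold change (TNF-α over vehicle, bars standard error) of the 10 genes in promyelocytes (blue) and granulocytes (orange), filled where the adjusted p was under 0.05 in the fit of all genes. *VCAM1*, *TNFAIP6* and *TNFAIP2* lie above 3 in both cell types, *ICAM4* and *ICAM5* lie on opposite sides of 0, and *ICAM3* lies at 0.03 and -0.02. The bars of *VCAM1* and *TNFAIP6* do not cover the counting error of their few vehicle reads.

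Levels of different genes were compared in TPM, which divide by exon length and scale each library to the same total, without the TMM factor. They rank genes within a group, and values of the same gene are not compared between groups. In granulocytes *ALCAM* was at 48.29 to 51.73 TPM with vehicle and 38.63 to 43.96 TPM with TNF-α, without overlap, although its CPM overlapped. The granulocyte groups of *ICAM3* also overlapped in CPM but not in TPM, with means of 30.92 TPM with vehicle and 25.78 TPM with TNF-α. In vehicle-treated promyelocytes *CD44* (56.4 ± 2.21 TPM) and *ALCAM* (55.1 ± 2.45 TPM) led, followed by *ICAM3* (26.2 ± 2.27) and *TNFAIP2* (17.2 ± 0.516), and *ICAM1* was at 1.27 ± 0.313 TPM (SD, n = 3). The first 2 differed by less than their spread. In TNF-α treated promyelocytes *TNFAIP2* led with 370.5 ± 30.4 TPM, and *ICAM1* (96.1 ± 11.5) and *CD44* (88.8 ± 12.4) followed within each other's spread. In vehicle-treated granulocytes *TNFAIP2* (222.5 ± 1.20 TPM) and *ICAM1* (124.3 ± 6.86) led, then *ICAM4* (50.6 ± 3.11) and *ALCAM* (49.6 ± 1.87), while *CD44* was at 11.2 ± 0.192 TPM. In TNF-α treated granulocytes *TNFAIP2* reached 2140.0 ± 74.9 TPM and *ICAM1* 557.8 ± 32.3 TPM. *VCAM1* stood at 39.6 ± 1.59 TPM there, within the spread of *ALCAM* at 40.5 ± 3.04, and *TNFAIP6* at 33.8 ± 3.70 TPM. The lowest in that group was *ICAM5*, at 0.726 ± 0.137 TPM.

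The partners of these proteins were read from a list of 15 ligands and receptors. This list and those below were chosen with earlier results of these data known, so adjusted p-values of their genes are descriptions. Of the 9 tested in promyelocytes, 0 rose and 2 fell, with a median log2 fold change of -0.08, and of the 10 tested in granulocytes, 4 rose and 6 fell, with a median of -0.19. Over all genes tested, 14.8% were called in promyelocytes and 49.2% in granulocytes, and the medians were -0.009 and -0.005. *ITGA4*, the α4 chain of VLA-4 that binds VCAM1, fell in both cell types, by 0.22 in promyelocytes (edgeR adjusted p = 0.0126) and 0.88 in granulocytes (edgeR adjusted p = 9.42e-18), where its mean went from 506.6 to 278.7 CPM. Its partner chain *ITGB1* rose by 0.16 in granulocytes. *ITGAL*, the α chain of LFA-1, fell by 0.43 and 0.63, and *ITGAM*, the α chain of Mac-1, fell by 0.26 in granulocytes and had a log2 fold change of 0.04 in promyelocytes. *ITGB2*, the β2 chain that both share, rose by 0.38 in granulocytes, and *ITGAX*, another myeloid α chain that pairs with it, rose by 0.67. *ITGA9*, another integrin chain that binds VCAM1, fell by 1.26 in granulocytes. *SPN* (CD43) rose by 0.16 and *HMMR*, an intracellular hyaluronan-binding protein of the spindle, fell by 0.25 in granulocytes. The last of the 10, *ITGB7*, fell by 0.13 there. *CD6*, the partner of ALCAM, had at most 17 read pairs in a library, and *STAB2*, a hyaluronan receptor of sinusoidal endothelium, had 0 in all 12.

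**Figure D4:**
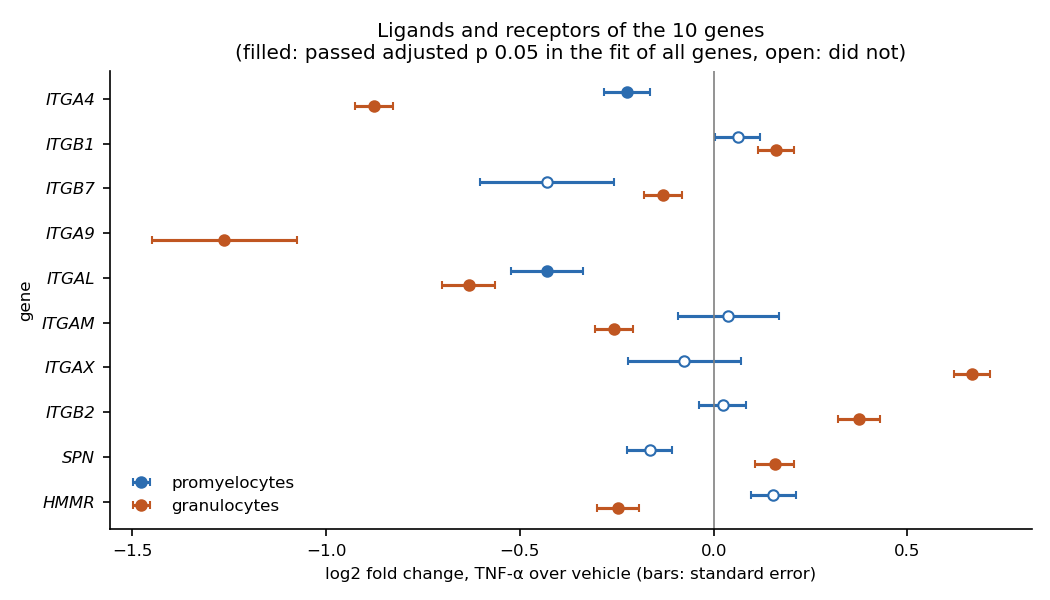
Log2 fold change (TNF-α over vehicle, bars standard error) of the ligands and receptors that were tested, in promyelocytes (blue) and granulocytes (orange), filled where the adjusted p was under 0.05. In granulocytes *ITGA9* and *ITGA4* lie lowest, at -1.26 and -0.88, and *ITGAX* highest, at 0.67, while in promyelocytes *ITGA4* and *ITGAL* alone are filled.

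Other adhesion molecules of the vessel wall were a list of 21. In promyelocytes 12 were tested, and 2 rose and 1 fell (median log2 fold change -0.12). In granulocytes 16 were tested, and 5 rose and 7 fell (median -0.20). The background called over all genes tested was 14.8% and 49.2%. *CD34*, a sialomucin of progenitors and endothelium, rose from 2 to 4 read pairs per library to 19 to 27 in promyelocytes and from 0 to 2 to 48 to 66 in granulocytes. In both cell types *CD34* passed the filter on low counts only through its TNF-α level. *CD58*, the ligand of CD2, rose by 1.01 and 1.60. *SELPLG*, which encodes the P-selectin ligand PSGL-1, fell by 1.01 in promyelocytes and 2.11 in granulocytes (edgeR adjusted p = 1.5e-19). *CEACAM1*, a carcinoembryonic antigen family member, fell by 1.32 in granulocytes.

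Around hyaluronan, *HAS1* and *HAS2*, which encode synthases, had 0 reads in all 12 libraries, and *HAS3* had 42 to 100 read pairs per library and did not pass the threshold in either cell type. Of the 19 genes on this list, 6 were tested in promyelocytes, of which 1 rose and 0 fell (median log2 fold change 0.14). In granulocytes 8 were tested, and 3 rose and 1 fell (median 0.26). The background called over all genes tested was 14.8% in promyelocytes and 49.2% in granulocytes. *PTX3*, a pentraxin that TNFAIP6 binds in the hyaluronan matrix, rose in promyelocytes from 0 to 3 to 20 to 23 read pairs and was too low to be tested in granulocytes, at 1 to 9. *PTX3*, the gene of this list that rose in promyelocytes, passed the filter on low counts only through its TNF-α level. *SPP1* (osteopontin), a ligand of CD44, rose by 1.87 in granulocytes, from 8 to 19 read pairs to 27 to 48. *CEMIP2*, a cell-surface hyaluronidase, rose by 0.80 there. *ITIH4*, of the inter-α-trypsin inhibitor heavy chain family, fell from 11 to 18 read pairs to 2 to 5, and *THBS1* (thrombospondin-1) rose by 0.33. *ITIH4*, the gene of this list that fell in granulocytes, passed the filter on low counts only through its vehicle level.

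A list of 16 held proteases that cut these proteins from the surface, linkers that tie them to actin, and splicing regulators of *CD44*, and 12 of the 16 were tested in each cell type. In promyelocytes 3 rose and 1 fell (median log2 fold change 0.03), and in granulocytes 8 rose and 2 fell (median 0.29). Beside these stand 14.8% and 49.2% called over all genes tested. *MMP9*, which cleaves ICAM1 and binds CD44, rose by 2.59 in promyelocytes and 3.57 in granulocytes. *MMP14*, which sheds CD44, rose by 1.54 and 2.49 (edgeR adjusted p = 0.000112 and 3.82e-20). *ADAM17*, the sheddase of VCAM1 and ICAM1, rose by 0.34 and 1.39. *FLNA*, an actin cross-linker, rose by 1.36 in granulocytes, from 162.4 to 421.6 CPM, and *ACTN1*, an actinin that binds the ICAM tails, fell by 0.18 in promyelocytes.

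Among the other 6 genes that carry the TNFAIP name, 3 rose and 0 fell in promyelocytes (median 0.08) and 5 rose and 1 fell in granulocytes (median 0.91). *TNFAIP3* (A20), an inhibitor of NF-κB, rose by 3.63 and 5.08, and *TNFAIP8L1* by 0.58 and 1.37. *TNFAIP8L3* rose in granulocytes from 0 to 5 read pairs to 21 to 25 and was tested only through its TNF-α level. *TNFAIP8L2* fell in granulocytes by 0.67. Of the NF-κB pathway, 28 of 29 genes were tested in each cell type. There 15 rose and 2 fell in promyelocytes (median 0.48) and 21 rose and 2 fell in granulocytes (median 0.68). In promyelocytes the largest rises were those of *CD40* (6.28), a TNF receptor family member, *BIRC3* (5.58), an inhibitor of apoptosis, *TRAF1* (4.51), an adaptor of TNF receptors, and *NFKBIA* (3.91), which encodes the NF-κB inhibitor IκBα. *CD40* had 2 to 8 read pairs with vehicle in promyelocytes and was tested there only through its TNF-α level. In granulocytes the largest rises were those of *BIRC3* (8.31), *TRAF1* (7.20), *NFKBIA* (5.51) and *BCL3* (5.09), a nuclear partner of NF-κB. For both lists, the background called over all genes tested was 14.8% in promyelocytes and 49.2% in granulocytes.

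The genes whose pattern over the 12 libraries was most like that of a given gene were found by Pearson's r of log2 CPM among 18124 genes. As a description, with libraries of 4 groups that share treatment and cell type, *ICAM1* was closest to *DAPP1* (r = 0.9978), *CCL1* (0.9943) and *DUSP4* (0.9918). *TNFAIP2* was closest to *CD40* (r = 0.9966), *CCL20* (0.9934) and *TNFRSF9* (0.9934). *VCAM1* was closest to *PTAFR* (r = 0.9932), *STX11* (0.9931) and *IER3* (0.9927), and *TNFAIP6* to *IER3* (0.9925), *NFKB2* (0.9918) and *NBPF19* (0.9908), so that *IER3* was on the lists of both. *CD44* was closest to *MFSD2A* (r = 0.9962), *MTHFD2* (0.9949) and *LRRC8B* (0.9944).

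**Figure D5:**
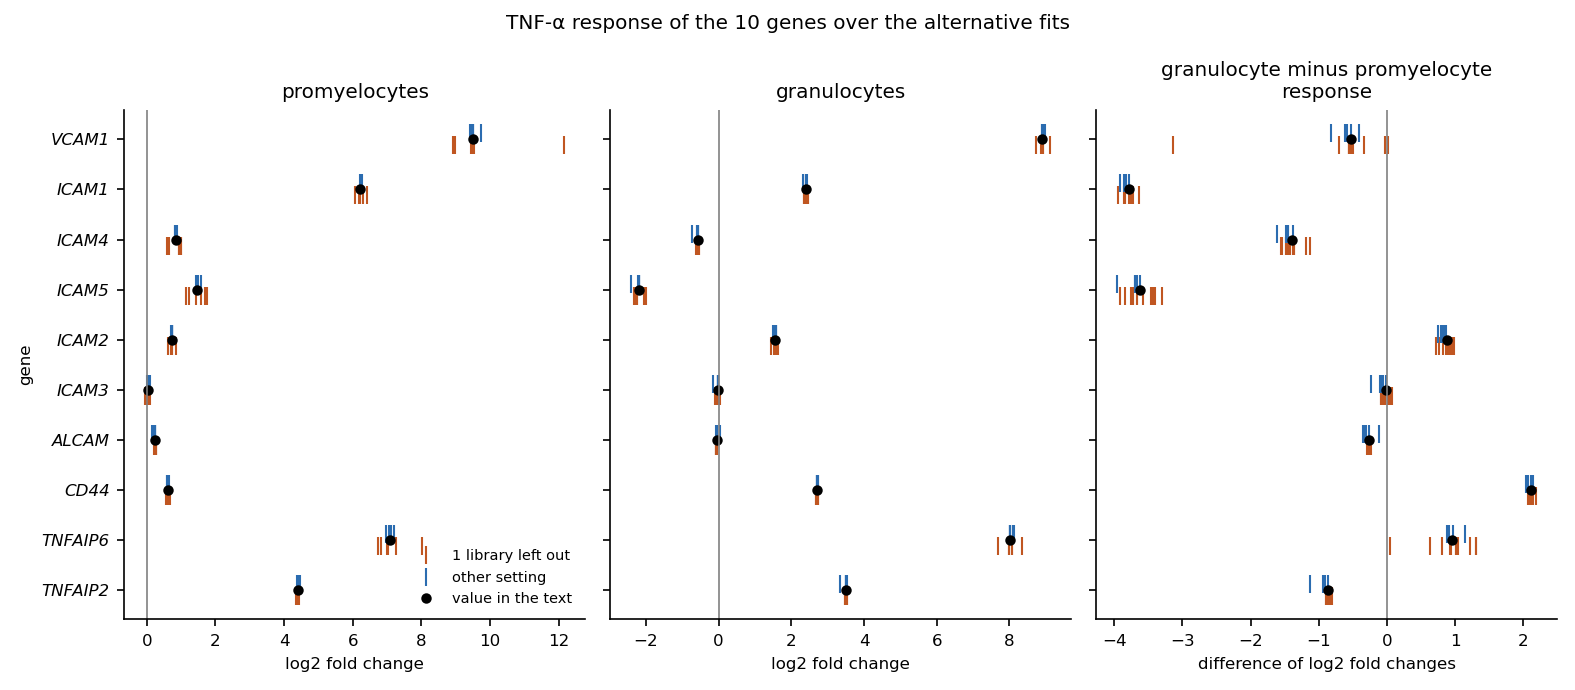
Log2 fold changes of the 10 genes under the alternative fits, for promyelocytes, granulocytes and the granulocyte minus promyelocyte response. Black points are the values given in the text, blue ticks other settings and orange ticks fits without 1 library. *VCAM1* spreads widest in promyelocytes, from 8.93 to 12.16, while *ICAM1*, *CD44* and *TNFAIP2* stay on the same side of 0 in every fit.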

How the data were processed

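Total RNA of 12 HL-60/S4 cultures was depleted of ribosomal RNA and sequenced from both ends by the authors, who aligned the reads with STAR 2.5.3a to hg38 and counted read pairs per GENCODE 27 gene with featureCounts 1.5.2. The file header gives the counting options: primary alignments, both ends mapped, no chimeric pairs, reverse strand. The authors deposited raw counts per gene with no normalization. Primary alignments of multi-mapping pairs are included. Groups were taken from the labels. Symbols were added for 57532 of 58288 identifiers.

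From these counts, promyelocyte and granulocyte libraries were fitted apart in edgeR 4.0.16 (R 4.3.3; TMM, filterByExpr with a minimum count of 10 and total of 15, quasi-likelihood test, Benjamini-Hochberg over all genes tested, threshold 0.05), and the difference between the responses was an interaction term fitted over the 12 libraries together. A standard error is the log2 fold change over the square root of F. For *VCAM1* and *TNFAIP6* it does not cover the counting error of the few vehicle reads. For genes with few vehicle reads the fit depends on edgeR's prior count of 0.125, so ratios of summed counts with exact 95% binomial intervals are given beside them. TPM used the exon lengths of the file and no TMM factor. For 3 libraries against 3 an exact permutation test cannot go below p = 0.1 (two-sided), so calls rest on the spread that edgeR models across genes. Total counts were 22829189 to 31895061 per library. Intervals cover counting error only.

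The 10 genes, the 6 pathway lists and the 5 marker lists were chosen with earlier results of these data known, and no p-value is given for the 10 genes. Those printed for list genes describe the fit and are not independent tests. Named list genes were the ligands and receptors, and elsewhere up to 4 called genes per list and cell type with the largest absolute log2 fold change. For 5 of the 10 genes, the 3 most similar genes by Pearson's r (prior count 2) were named, and near the ICAM genes those called and within 20 kb. *HAS1*, *HAS2*, *HAS3* and the marker genes were named after their values were seen. Alternatives were DESeq2's size factors, no filter, DESeq2 1.42.0, the replicate number as a block, 1 fit of all 12 libraries, trends in GC content and length removed by splines with 5 degrees of freedom, and leaving out each library. The procedure was tested on simulated data. No gene changed there had as few vehicle reads, or as large a change, as *VCAM1* or *TNFAIP6*, so that test does not cover them. Tables were handled with Python 3.11.15 and plots drawn with matplotlib 3.10.9. Protein sequences and splice forms were not analysed here.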

Additional observations from a re-analysis of the deposited data

Results flagged for a closer look

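The response to TNF-α differed between granulocytes and promyelocytes past the threshold of the edgeR interaction fit (adjusted p under 0.05) for 7 of the 10 genes. Over all 18124 genes tested for that difference, 24.0% passed it. These values come from the contrasts for which the genes were chosen, and they are given as a description. On the log2 scale, the granulocyte response minus the promyelocyte response was -3.78 for *ICAM1*, -3.62 for *ICAM5*, -1.39 for *ICAM4*, -0.86 for *TNFAIP2* and -0.26 for *ALCAM*. It was 0.88 for *ICAM2* and 2.12 for *CD44*. Each cell type was handled in an experiment of its own, so cell type and experiment cannot be told apart in these differences.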

How the results depend on the processing

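Over the alternatives, 409 log2 fold changes of the 10 genes were recomputed: 386 kept their direction and side of the threshold, 9 lost the call, 1 gained it and 13 changed sign. With trends in GC content and length removed, *ALCAM* was 0.025 in granulocytes, 0.14 in promyelocytes (no longer called) and -0.12 for the difference (no longer called), and *ICAM3* was -0.16 in granulocytes (now called). All other changes of sign came from leaving out 1 library, in values that were not called. For *ICAM3* these fits ranged from -0.044 to 0.105 in promyelocytes, from -0.087 to 0.05 in granulocytes and from -0.087 to 0.071 for the difference. For the *VCAM1* difference they ranged from -3.143, without promyelocyte vehicle replicate 2, to 0.011, without promyelocyte vehicle replicate 1. The cause was not tested. Leaving out each library gave 7 to 9 genes called in promyelocytes, 8 in granulocytes and 7 for the difference, and 1598 to 2475 of all genes called in promyelocytes, the lowest without vehicle replicate 2. The other settings gave 8 to 9, 8 to 9 and 6 to 7 of the 10 genes. The order of the group means changed only for *ICAM3* and *TNFAIP6*, whose neighboring groups overlap. Of the differences past the threshold over all genes, 58.9% were higher in granulocytes, 48.4% with DESeq2's size factors, 44.2% without the filter, 46.1% with DESeq2 and 51.4% with GC and length trends removed. Libraries with the same replicate number did not deviate together (correlations of -0.146 to -0.0435 in promyelocytes and -0.0674 to -0.0129 in granulocytes), and the replicate block left the calls of the 10 genes as they were, with 1833, 7721 and 3349 genes called over all in promyelocytes, granulocytes and the difference. DESeq2 gave no adjusted p for *ICAM5* in promyelocytes. With 3 libraries a group and under 25 read pairs a library, depth limits *ICAM5* in promyelocytes and the vehicle levels of *VCAM1* and *TNFAIP6*.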
